A study of Mus musculus with 6 samples.

Results

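The MCM helicase family comprised 9 genes here, Mcm2, Mcm3, Mcm4, Mcm5, Mcm6, Mcm7, Mcm8, Mcm10 and Mcmbp, found by gene symbol among the 47729 genes of each deposited table. All 9 were protein-coding and all had a mean level above the minimum of 1 TPM (a measure of transcript level that corrects for transcript length and library size) that defined the 13372 tested genes. RNA was sequenced from activated CD8+ T cells of mouse spleen that received 2 µM blebbistatin, a small molecule that blocks the motor activity of myosin II, for 24 h (3 libraries) or vehicle (3 libraries). Both groups were activated cells of the same source, and the labels name no strain, age, sorting step or vehicle composition. The origin of each replicate, by animal or by culture, is not stated, so p-values measure the spread between these libraries, which may be technical.

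The proteins Mcm2 to Mcm7 form the ring-shaped helicase that unwinds DNA ahead of the replication fork. In late mitosis and G1 the origin recognition complex, Cdc6 and Cdt1 load the rings onto DNA in an inactive form, and in S phase kinases, Cdc45 and the GINS proteins turn them into moving helicases. Mcm10 acts at the activation step, Mcm8 belongs to a separate helicase of DNA repair that it forms with Mcm9, and Mcmbp, studied mostly in human cells, binds MCM proteins and promotes assembly of new complexes. Resting T cells hold little of this machinery and raise it when activation makes them divide. In GRCm38 the genes are spread over 7 chromosomes. Mcm3 (chr1:20802968-20820312) and Mcm6 (chr1:128331590-128359664) lie on the minus strand of chromosome 1, and Mcm8 (chr2:132816141-132844197, plus strand) and Mcm10 (chr2:4989714-5012791, minus strand) on chromosome 2. Mcm7 (chr5:138164583-138172422), Mcm2 (chr6:88883474-88898780), Mcmbp (chr7:128696441-128740495) and Mcm4 (chr16:15623897-15637400) lie on the minus strand, and Mcm5 (chr8:75109528-75128439) on the plus strand.

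Depth, implied by setting deposited coverage against FPKM, was 19482273, 19849612 and 19483772 fragments with blebbistatin and 18466219, 19088212 and 19929460 fragments with vehicle. All 8 CD8 T cell markers were present, with Cd8a at 426 to 433 TPM with blebbistatin and 409 to 415 TPM with vehicle, and 1 of them passed, Thy1, lower at 1170 ± 36.0 TPM with blebbistatin and 1416 ± 21.4 TPM with vehicle (mean ± SD, n = 3 each; limma adjusted p = 0.038). Of 5 CD4 and regulatory T cell markers, 3 were tested and 0 passed. Cd4 lay between 0.036 and 0.24 TPM in the 6 libraries. Ikzf2 stood at 18.5 ± 2.53 TPM with blebbistatin and 11.1 ± 2.70 TPM with vehicle (limma adjusted p = 0.090). Its groups did not overlap on the higher side, as in 18.0% of tested genes. Foxp3 stood at 1.23 ± 0.248 and 1.48 ± 0.317 TPM and Il2ra at 851 ± 79.9 and 838 ± 9.62 TPM. Of 5 NK cell markers, 3 were tested and 0 passed, with Eomes and Gzma lower without overlap, as in 13.0% of tested genes. Of 8 B cell markers 4 were tested and 2 passed, both higher, Igkc at 16.6 ± 0.524 and 9.22 ± 1.40 TPM (limma adjusted p = 0.028) and H2-Eb1 at 20.04 ± 2.76 and 8.29 ± 1.40 TPM (limma adjusted p = 0.020) with blebbistatin and with vehicle. The summed level of the 8 was 516 to 543 TPM with blebbistatin and 522 to 539 TPM with vehicle, most of it Ighm, while the defining markers Ms4a1 and Pax5 lay between 0.014 and 0.38 TPM. Of 8 platelet markers, 7 were tested and 5 passed, all higher, and the summed level of the 8 was 136 to 153 TPM with blebbistatin and 60.04 to 68.98 TPM with vehicle, with none of the 8 at 0 in every library. The part of any of these markers in the MCM values was not tested. On the first principal component of all tested genes blebbistatin 1 lay farthest from vehicle and blebbistatin 2 nearest.

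Every hexamer transcript was abundant in blebbistatin-treated cells, at 183 TPM or more in each library. Mcm2 and Mcm5 had the lowest fold changes, at 0.85 and 0.86 of the vehicle level, while Mcm4 and Mcm6 stood at 0.98, and none of these differences passed the test. Of the 9 members 0 passed limma with Benjamini-Hochberg adjustment over all tested genes, where 1.82% of genes were called (1.40% higher and 0.426% lower). At an unadjusted p under 0.05 there were 2 members, Mcm2 and Mcm5, both lower, beside 22.9% of all tested genes in either direction and 9.99% on the lower side. In either direction that share of the family is close to the background. In 4 members, Mcm2, Mcm3, Mcm5 and Mcm7, each blebbistatin library was below each vehicle library, which held in 13.0% of tested genes, and 31.0% did not overlap in either direction. In bulk RNA a smaller number of cells of a type and less RNA in each cell cannot be told apart.

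Mcm2, whose amino-terminal tail also binds histones, had 183, 220 and 201 TPM in blebbistatin libraries 1, 2 and 3, against 238, 234 and 232 TPM in the vehicle libraries. The groups did not overlap, and blebbistatin 1 was the lowest library. The log2 fold change was -0.23 (SE 0.07, 95% interval -0.39 to -0.06, limma adjusted p = 0.14). Without blebbistatin 2, the treated library nearest to vehicle, it was -0.29 and passed (limma adjusted p = 0.037). In that fit 496 of 13372 tested genes were called higher and 594 lower, against 187 and 57 with all 6 libraries. Leaving out any 1 of the other 5 libraries gave values from -0.24 to -0.16 and no call.

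Mcm5, the subunit that with Mcm2 forms the gate through which the ring opens for loading, had 258, 293 and 291 TPM with blebbistatin, against 327, 321 and 333 TPM with vehicle. The groups did not overlap, and again the lowest value was that of blebbistatin 1. The log2 fold change was -0.22 (SE 0.06, 95% interval -0.36 to -0.08, limma adjusted p = 0.11). No other setting or left-out library gave a call for Mcm5, with adjusted p between 0.052 after the length and GC correction described further on and 0.28 without vehicle 3.

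Mcm3, which contacts the loading machinery early in ring loading, had 304, 306 and 306 TPM with blebbistatin, against 328, 325 and 321 TPM with vehicle. The spread within each group was small and the groups did not overlap. The log2 fold change was -0.09 (SE 0.04, 95% interval -0.19 to 0.01, limma adjusted p = 0.24).

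Mcm7, a core helicase subunit, had 264, 264 and 270 TPM with blebbistatin, against 271, 274 and 281 TPM with vehicle. The highest treated library lay just under the lowest vehicle library. The log2 fold change of -0.05 had a 95% interval of -0.15 to 0.05.

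Mcm4 carries a long tail that is phosphorylated during helicase activation, and its transcript stood at 253, 238 and 245 TPM with blebbistatin, against 251, 249 and 254 TPM with vehicle. Mcm6, which binds Cdt1 during loading, stood at 306, 295 and 309 TPM with blebbistatin, against 305, 305 and 316 TPM with vehicle. For both genes the groups overlapped. The log2 fold changes were -0.03 (95% interval -0.14 to 0.08) for Mcm4 and -0.03 (-0.13 to 0.08) for Mcm6, so the intervals reach a level of 0.91 of vehicle at the lower end for each.

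**Figure D1:**
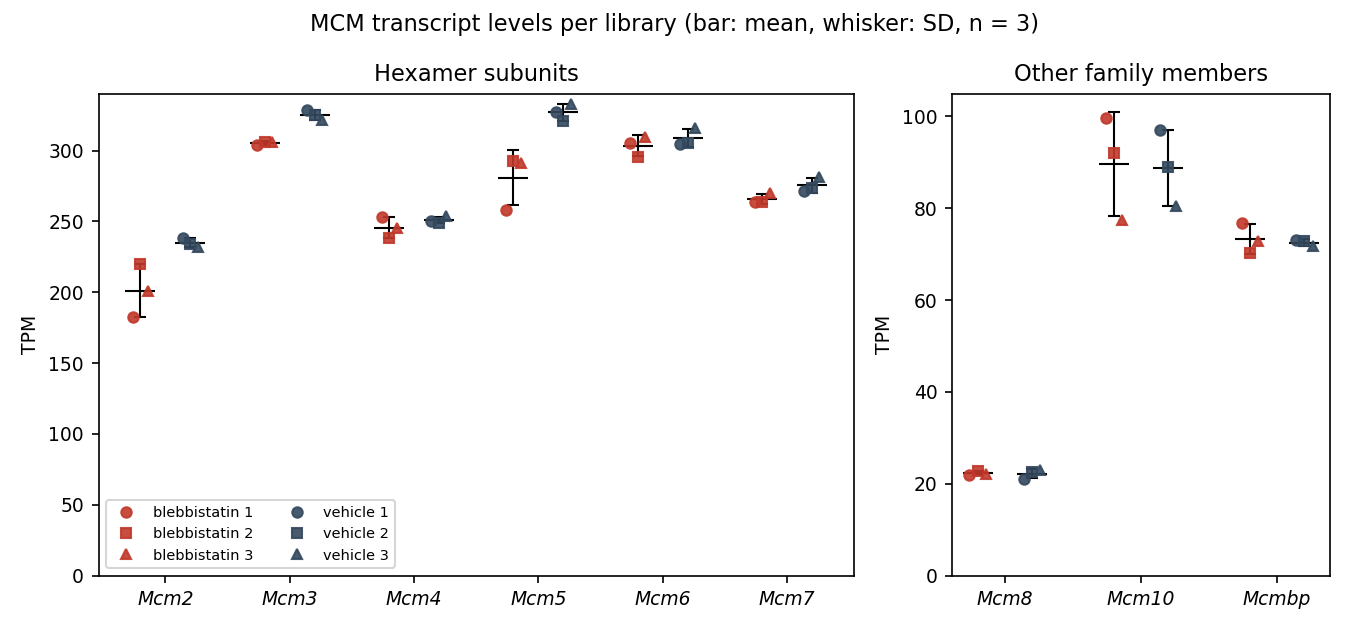
TPM of the 9 MCM genes in each blebbistatin (red) and vehicle (dark) library, with marker shapes for replicates 1 to 3, a bar for the mean and whiskers for the SD. Mcm2 and Mcm5 show the widest gap between groups among the hexamer subunits, and Mcm8, Mcm10 and Mcmbp overlap between groups.

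All 6 hexamer values were below 0 on the log2 scale, with a median of -0.07 beside 0.03 over all tested genes, but under quantile scaling Mcm4, Mcm6 and Mcm7 turned to 0.02, 0.03 and 0.02. Under that scaling the groups of Mcm2 and Mcm5 alone among the members did not overlap. With median-ratio scaling all 6 subunits were below vehicle without overlap, as were 17.3% of tested genes. Mcm2 and Mcm5 kept a negative value under each of the 19 alternatives, between -0.29 and -0.16 for Mcm2 and between -0.26 and -0.16 for Mcm5.

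The summed level of the 6 subunits was 1567, 1616 and 1623 TPM with blebbistatin, against 1721, 1708 and 1737 TPM with vehicle. The groups did not overlap, and Mcm2 and Mcm5 made up most of the difference between the means, with 201 ± 18.7 against 235 ± 3.27 TPM for Mcm2 and 281 ± 19.5 against 327 ± 5.79 TPM for Mcm5 (mean ± SD, n = 3 in each group). Mcm8, Mcm10 and Mcmbp together summed to 198, 185 and 172 TPM with blebbistatin, against 191, 184 and 175 TPM with vehicle. The SD of Mcm2 among blebbistatin libraries was 9.28% of its mean, against 1.39% among vehicle libraries, and that of Mcm5 was 6.94% against 1.77%. Mcm3 went the other way, with 0.41% among blebbistatin libraries and 1.07% among vehicle libraries.

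Within the hexamer the order of levels by TPM differed between the groups. With blebbistatin it ran Mcm3, Mcm6, Mcm5, Mcm7, Mcm4, Mcm2, and with vehicle Mcm5, Mcm3, Mcm6, Mcm7, Mcm4, Mcm2. Among the blebbistatin libraries the ranges of Mcm3 and Mcm6 overlapped, as did those of Mcm5 and Mcm7. Among the vehicle libraries the ranges of Mcm5 and Mcm3 overlapped and no other neighbours did. Mcm10, Mcmbp and Mcm8 followed in that order in both groups without overlap.

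A share of the summed hexamer TPM does not depend on the scaling of a library. Mcm5 held 16.5%, 18.1% and 18.0% of it with blebbistatin, against 19.0%, 18.8% and 19.2% with vehicle. Mcm2 held 11.7%, 13.6% and 12.4% with blebbistatin, against 13.9%, 13.7% and 13.4% with vehicle, so that blebbistatin 2 lay inside the vehicle range. Mcm4 held 16.2%, 14.8% and 15.1% with blebbistatin, against 14.6%, 14.6% and 14.6% with vehicle. The share of Mcm5 was below and that of Mcm4 above the vehicle range in all 3 treated libraries. Mcm6 and Mcm7 also held larger shares in all 3 treated libraries, at 18.3% to 19.5% against 17.7% to 18.2% for Mcm6 and 16.3% to 16.8% against 15.8% to 16.2% for Mcm7. The shares of a library are parts of a whole, so lower shares of some subunits make those of others larger. The TPM of Mcm4, Mcm6 and Mcm7 was not higher, with log2 fold changes of -0.03, -0.03 and -0.05. The ratio of Mcm5 to Mcm4 was 1.02, 1.23 and 1.19 with blebbistatin, against 1.305, 1.290 and 1.312 with vehicle. That of Mcm2 to Mcm6 was 0.60, 0.75 and 0.65 with blebbistatin, against 0.78, 0.77 and 0.73 with vehicle. In this second ratio blebbistatin 2 lay inside the vehicle range. With 3 libraries against 3 an exact two-sided permutation test cannot go below p = 0.10, and no test was made of these shares. The shares were not corrected for length or GC content, and such a correction changed the fold change of Mcm4, as given further on.

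**Figure D2:**
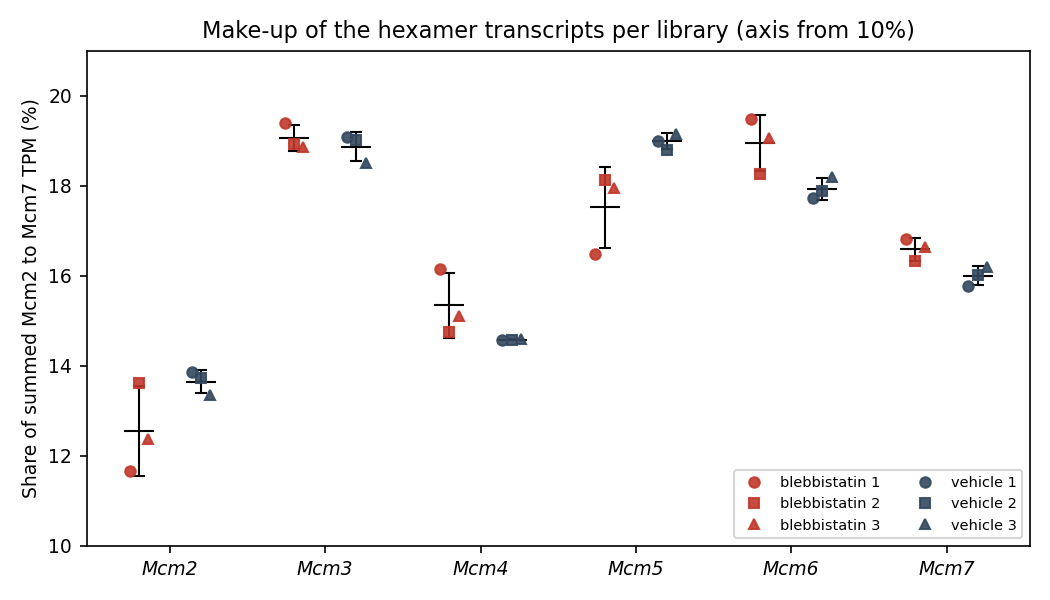
Share of each subunit in the summed TPM of Mcm2 to Mcm7, in percent on an axis that starts at 10%, for each blebbistatin (red) and vehicle (dark) library, with mean and SD. The 3 blebbistatin points of Mcm5 lie below the vehicle points and those of Mcm4, Mcm6 and Mcm7 lie above them.

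GC content differed among the subunits in the same way as the overlap of the groups. The longest annotated transcripts of the 4 genes without overlap had 51.7% (Mcm2), 52.6% (Mcm3), 51.9% (Mcm5) and 53.4% (Mcm7) GC, while Mcm4 had 45.5% and Mcm6 47.3%. Across all tested genes the treated libraries moved with GC content, and most so blebbistatin 1, where the median difference from the vehicle mean was 0.29 on the log2 scale in genes under 40% GC and -0.26 in genes at 55% or more. In blebbistatin 2 the same medians were 0.04 and -0.01. Among the 3470 genes between 50% and 55% GC the medians were -0.03, 0.02 and 0.00 in blebbistatin 1, 2 and 3. Mcm2 stood at -0.36, -0.09 and -0.22 in these libraries and Mcm5 at -0.34, -0.16 and -0.17, below the median of that bin in each library. Mcm3, at -0.10, -0.09 and -0.08, and Mcm7, at -0.06, -0.06 and -0.03, were also below it in each library. Between 45% and 50% GC the medians were 0.10, 0.02 and 0.05. Mcm4, at 0.01, -0.07 and -0.03, and Mcm6, at -0.02, -0.06 and 0.00, were below these in each library.

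When each library was corrected by a loess curve on length and GC content, the log2 fold changes of Mcm2 and Mcm5 were -0.23 and -0.22, the same to 2 decimals as before it. Mcm4 and Mcm6 moved to -0.11 and -0.09, and Mcm3 and Mcm7 stood at -0.08 and -0.02. After the correction 6 members were below vehicle without overlap, Mcm2, Mcm3, Mcm4, Mcm5, Mcm6 and Mcmbp, beside 17.0% of tested genes, and Mcm7 overlapped. By limma 0 members passed after the correction, where 3.28% of genes were called (1.30% lower), with adjusted p of 0.052 for Mcm5, 0.074 for Mcm2 and 0.0998 for Mcm4. Over all genes the correction gave 264 higher and 173 lower calls, in place of 187 higher and 57 lower.

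**Figure D3:**
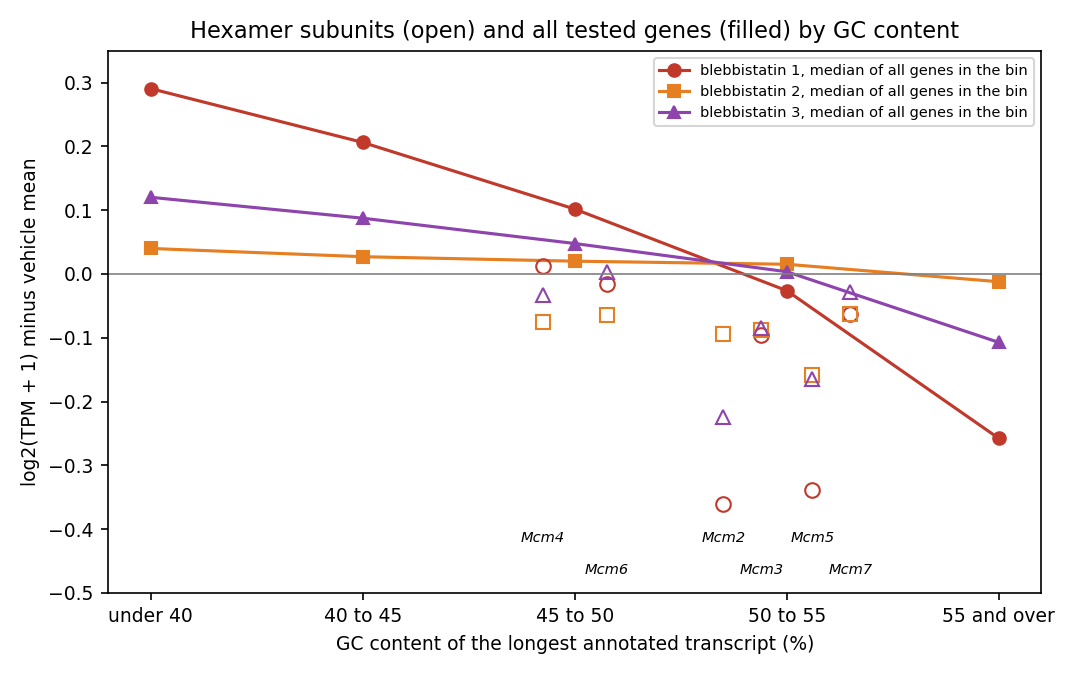
Difference of each blebbistatin library from the vehicle mean on the log2(TPM + 1) scale, by GC content of the longest annotated transcript. Filled points on lines are medians of all tested genes in a bin and open points are the hexamer subunits. Each subunit lies below the median of its bin in all 3 libraries, with Mcm2 and Mcm5 the lowest in blebbistatin 1.

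Mcm10, which is needed for the loaded helicase to start unwinding, had 99.6, 92.0 and 77.3 TPM with blebbistatin, against 97.0, 88.9 and 80.4 TPM with vehicle. The groups overlapped over nearly their whole range, and the log2 fold change was 0.01 (SE 0.11) with the widest 95% interval of the family, -0.24 to 0.27. The deposited coverage, the mean read depth over the gene, varied less, at 82.5, 82.2 and 77.1 reads per base with blebbistatin and 85.1, 83.0 and 87.4 with vehicle. Coverage per TPM in Mcm10 was 0.83, 0.89 and 1.00 with blebbistatin and 0.88, 0.93 and 1.09 with vehicle, while genes with a single annotated transcript had 2.66 to 2.83 in the 6 libraries. Put on the TPM scale of such genes, the coverage of Mcm10 was 30.1, 29.0 and 27.9 with blebbistatin, against 32.0, 30.7 and 30.9 with vehicle. On that measure the groups did not overlap, as in 13.5% of tested genes on the lower side, and the log2 fold change was -0.10 (95% interval -0.22 to 0.02, limma adjusted p = 0.26), so the direction for Mcm10 depends on which deposited measure is used. Mcm10 has 10 annotated transcripts, and the gene tables do not show how they share the reads.

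The hexamer subunits differed less between the measures. Coverage per TPM equalled that of single-transcript genes for Mcm4 and Mcm5 and lay between 1.27 and 1.36 for Mcm2, between 1.51 and 1.62 for Mcm7, and between 2.08 and 2.38 for Mcm3 and Mcm6. By coverage Mcm2 held 7.60% of the hexamer with blebbistatin and 8.27% with vehicle, and by TPM 12.5% and 13.6%. Mcm5 had the largest mean share by coverage in both groups, 22.1% with blebbistatin and 24.0% with vehicle. Its lower rank with blebbistatin thus depends on the measure. The comparison of levels between subunits therefore rests on the TPM of the authors, while the fold changes of Mcm2, Mcm5 and Mcm3 by coverage, at -0.22, -0.22 and -0.09, were within 0.01 of those by TPM.

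**Figure D4:**
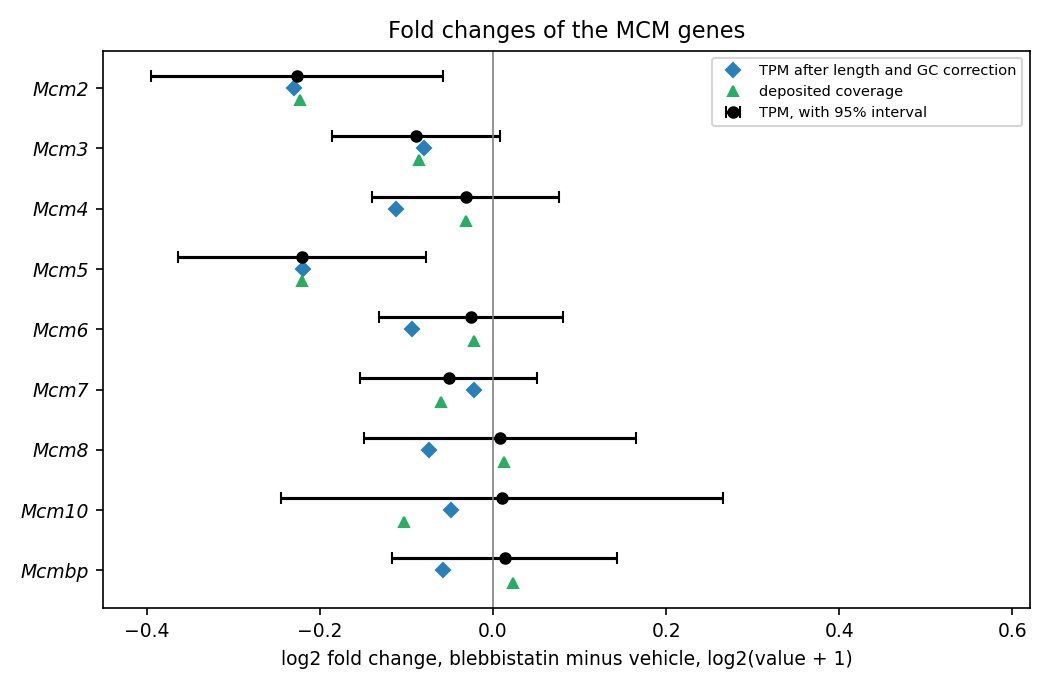
Log2 fold change of each MCM gene, blebbistatin minus vehicle, from TPM with its 95% interval (black), after correction for length and GC content (blue) and from deposited coverage (green). The intervals of Mcm2 and Mcm5 lie below 0 before adjustment over all genes, and the Mcm10 value changes sign between TPM and coverage.

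Mcmbp had 76.7, 70.2 and 72.9 TPM with blebbistatin, against 73.0, 72.8 and 71.8 TPM with vehicle. The treated libraries spanned both sides of the vehicle range, and the log2 fold change was 0.01 (95% interval -0.12 to 0.14). Mcm8 had 21.9, 22.9 and 22.2 TPM with blebbistatin, against 21.2, 22.5 and 22.9 TPM with vehicle, with a log2 fold change of 0.01 (95% interval -0.15 to 0.16). The groups overlapped for both genes. Mcm9, the partner of Mcm8 and outside the set of 9, stood at 8.08, 8.09 and 8.01 TPM with blebbistatin and 7.58, 7.93 and 8.93 TPM with vehicle. Mcm8 was the member with the fewest reads, an implied 636 to 734 fragments a library on its longest transcript, where Mcm6 had an implied 11761 to 12969.

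The promoter windows of RefSeq (GRCm38.p6, 250 bases before to 50 after the start) held an entry for 8 of the 9 members, and none for Mcm4. They are shown because E2F factors are the known activators of MCM genes in dividing mammalian cells. An E2F-like motif, any of TTTCCCGC, TTTCGCGC, TTTGCCGC and TTTGGCGC on either strand, was found in 6 of the 8 (Mcm3, Mcm5, Mcm6, Mcm7, Mcm8 and Mcmbp), and in 2.27% of the 32851 windows of all genes. A CCAAT box on either strand was found in 7 of the 8 and in 37.4% of all windows. For both motifs members were counted by gene, over any of their windows, and the background by window. Mcm7 had 2 windows. The stretches below run 5′ to 3′ on the strand of the gene, with E2F-like matches in capitals and positions counted from the start as 1. In Mcm5 and in the upstream match of Mcm6 a pair of matches on opposite strands overlaps. Mcm2 had no match in its window, and the stretch just before its start is given for comparison.
Mcm5 (chr8:75109309-75109458, plus strand, -200 to -51): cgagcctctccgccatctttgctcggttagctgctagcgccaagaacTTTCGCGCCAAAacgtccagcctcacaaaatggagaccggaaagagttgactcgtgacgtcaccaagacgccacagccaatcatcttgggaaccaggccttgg
Mcm6 (chr1:128359706-128359855, minus strand, -150 to -1): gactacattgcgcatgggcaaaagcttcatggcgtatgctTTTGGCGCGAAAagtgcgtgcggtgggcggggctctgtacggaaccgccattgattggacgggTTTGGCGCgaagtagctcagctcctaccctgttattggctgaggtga
Mcm2 (chr6:88898781-88898930, minus strand, -150 to -1): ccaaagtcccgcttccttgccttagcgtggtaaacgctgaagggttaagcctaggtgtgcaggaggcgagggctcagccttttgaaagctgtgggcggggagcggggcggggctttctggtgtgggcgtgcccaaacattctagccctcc
Mcm3 (chr1:20820265-20820294, minus strand, 19 to 48): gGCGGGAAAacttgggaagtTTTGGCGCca
Mcm7, 1 of 2 matches (chr5:138171849-138171878, minus strand, 6 to 35): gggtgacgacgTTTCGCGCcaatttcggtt
Mcm8 (chr2:132816161-132816190, plus strand, 21 to 50): gcagaagcgcgtcatagacGCGCCAAAaaa
Mcmbp (chr7:128740436-128740465, minus strand, -36 to -7): ggtggccgcgaTTTCCCGCcattgtgagaa

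Whether a match goes with the fold change was not tested. Mcm5 and Mcm6 both carry overlapping matches upstream of the start and had log2 fold changes of -0.22 and -0.03. Mcm2 and Mcm10, the members with a window but no match, had -0.23 and 0.01. A match in the letters is a description of the sequence and says nothing of which factor was bound in these cells.

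Of the members 3 share a start region with a gene on the other strand. Prkdc, the catalytic subunit of the DNA-dependent protein kinase of double-strand break repair, starts 466 bases from Mcm4 on chromosome 16. It had 21.9, 19.0 and 19.8 TPM with blebbistatin, against 16.2, 17.4 and 17.8 TPM with vehicle, so that its groups did not overlap on the higher side, as in 18.0% of tested genes. Its log2 fold change was 0.23 (SE 0.08, limma adjusted p = 0.17), where that of Mcm4 was -0.03. Trmt6, a subunit of a tRNA methyltransferase, starts 86 bases from Mcm8 on chromosome 2 and stood at 58.5 ± 4.12 TPM with blebbistatin and 50.3 ± 12.5 TPM with vehicle (mean ± SD, n = 3 each; limma adjusted p = 0.40). Ap4m1, a subunit of an adaptor complex of vesicle transport, starts 420 bases from Mcm7 on chromosome 5 and stood at 19.2 ± 2.20 TPM with blebbistatin and 19.6 ± 2.25 TPM with vehicle (limma adjusted p = 0.88). Exons of Ap4m1 and Mcm7 overlap on opposite strands over 321 bases, 7.25% of the Mcm7 exon length. Exons of Cops6, also on the opposite strand, overlap those of Mcm7 over 64 bases, 1.45% of that length. Cops6 stood at 139 ± 4.07 TPM with blebbistatin and 139 ± 2.79 TPM with vehicle (limma adjusted p = 0.98). The library kit does not mark strand, so reads in these overlaps cannot be told apart.

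Mcm7 also hosts the microRNA loci Mir106b, Mir93 and Mir25, whose mature products include a pair with a shared seed. The sequences, from RefSeq (GRCm38.p6), are shown with the seed, bases 2 to 8, in capitals.
mmu-miR-106b-5p: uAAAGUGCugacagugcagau
mmu-miR-93-5p: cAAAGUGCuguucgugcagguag
mmu-miR-25-3p: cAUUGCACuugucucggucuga
The hairpin loci on chromosome 5 were at low values, and a kit for long RNA does not capture mature microRNAs, so these values are no measure of them. Mir25 stood at 0.04 to 0.26 TPM with blebbistatin and 0.10 to 0.26 TPM with vehicle, and Mir93 at 0.009 to 0.13 and 0.006 to 0.15 TPM. Mir106b was listed at 0, 0.65 and 1.42 TPM with blebbistatin, against 4.22, 0.95 and 0.92 TPM with vehicle, and did not pass (limma adjusted p = 0.36). The loci of Mir25 and Mir93 lie inside annotated exons of Mcm7 on the same strand, so their reads cannot be told apart from those of the host.

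Among 69 other replication genes, in 6 lists by role, 1 passed, and it was lower. The median log2 fold change was -0.09, beside 0.03 over all tested genes, with 49 of the 69 values below 0 and 5999 of 13372 over all. Groups did not overlap in 18 of the 69 on the lower side and in 4 on the higher side, beside 13.0% and 18.0% of tested genes. The gene that passed was Pold2, the second subunit of the lagging-strand polymerase delta, with 76.7, 82.7 and 76.3 TPM with blebbistatin against 104, 98.6 and 107 TPM with vehicle (log2 fold change -0.39, SE 0.06, limma adjusted p = 0.034). Pold2 has 58.7% GC. After the length and GC correction 0 of the 12 fork polymerase genes passed, and the same was found with no minimum level, without the variance trend, without blebbistatin 1, without blebbistatin 3 and without each of the vehicle libraries. The median of this list was -0.07, or -0.12 after the length and GC correction and -0.039 without blebbistatin 2. Without blebbistatin 2, 3 passed, Pold1, Pold2 and Pole4, all lower, among 594 of 13372 tested genes called lower in that fit.

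In the list of origin recognition and loading, 0 of 9 genes passed and the median was -0.05, or -0.14 after the length and GC correction, between -0.079 without vehicle 1 and -0.022 without vehicle 2. Gmnn, the inhibitor of Cdt1, stood at 162 ± 8.39 TPM with blebbistatin and 175 ± 6.91 TPM with vehicle, Orc3 at 109 ± 16.5 and 103 ± 2.50 TPM, and Orc6 at 88.0 ± 5.57 and 89.0 ± 4.85 TPM (mean ± SD, n = 3 each). Cdt1, the loader that brings the ring to the origin, named after its values were seen, had 50.4, 93.2 and 68.5 TPM with blebbistatin against 106, 96.4 and 97.8 TPM with vehicle. Its libraries fall in the same order as those of Mcm2, with blebbistatin 1 lowest and blebbistatin 2 nearest to vehicle, and it has 57.8% GC (log2 fold change -0.54, SE 0.20, limma adjusted p = 0.18). Without blebbistatin 2 its value was -0.76 and passed (limma adjusted p = 0.028), among 594 of 13372 tested genes called lower in that fit. An order of blebbistatin 1 below 3 below 2 below every vehicle library was found in 2 of the 9 members, Mcm2 and Mcm5, in 6 of the 69 replication genes and in 833 of 13372 tested genes. This order is that of Mcm2 and Cdt1, which are themselves counted, so these counts are a description and no support for it. In Mcm5 blebbistatin 3 and 2 were close, at 291 and 293 TPM.

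In the list of helicase activation, 0 of 13 passed, though all 13 values were below 0, with a median of -0.10, or -0.15 both after the length and GC correction and without blebbistatin 1. Topbp1, a scaffold of activation, stood at 176 ± 10.1 TPM with blebbistatin and 181 ± 4.40 TPM with vehicle, and Cdc45, which joins the ring in the moving helicase, at 99.2 ± 2.96 and 104 ± 4.53 TPM. Cdk2, a kinase of S phase entry, stood at 76.5 ± 0.583 and 87.7 ± 2.54 TPM without overlap (limma adjusted p = 0.10), and was the 1 gene of the list that passed, at -0.23, after the length and GC correction (limma adjusted p = 0.0397). Without blebbistatin 2 the 1 gene that passed was Recql4, which is needed for the start of replication, at -0.41. That fit called 594 of 13372 tested genes lower. In the list of clamp and clamp loaders, 0 of 10 passed and the median was -0.07, between -0.14 without blebbistatin 2 and -0.046 without blebbistatin 3. Pcna, the sliding clamp, had 842, 839 and 810 TPM with blebbistatin, against 952, 944 and 937 TPM with vehicle (log2 fold change -0.19, SE 0.04, limma adjusted p = 0.078). Its groups did not overlap, and it passed after the length and GC correction at -0.26 (limma adjusted p = 0.018) and without blebbistatin 2 at -0.19 (limma adjusted p = 0.045). Over all tested genes these settings gave 173 and 594 lower calls. Chtf8 stood at 143 ± 8.51 and 158 ± 8.37 TPM and Rfc1 at 85.4 ± 5.61 and 81.7 ± 4.75 TPM.

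In the list of fork protection and lagging strand genes, 0 of 12 passed and the median was -0.13, or -0.064 without blebbistatin 3. Without blebbistatin 2, Rpa3, a subunit of the single-strand binding protein RPA, passed and was higher, at 0.29. That fit called 496 of 13372 tested genes higher. Ssrp1, a histone chaperone, stood at 397 ± 19.1 TPM with blebbistatin and 408 ± 7.24 TPM with vehicle, Tipin at 236 ± 15.8 and 219 ± 11.2 TPM, and Lig1, the ligase that joins Okazaki fragments, at 199 ± 13.9 and 233 ± 18.3 TPM. In the list of helicase unloading and Cdt1 turnover, 0 of 13 passed and the median was 0.03, or -0.05 after the length and GC correction, between -0.020 without blebbistatin 1 and 0.086 without blebbistatin 2, so its sign depends on the setting. It was -0.011 without vehicle 1 and 0.071 without vehicle 2. Vcp, the ATPase that extracts the helicase from DNA, stood at 406 ± 3.42 and 414 ± 3.23 TPM, Ddb1 at 327 ± 7.09 and 311 ± 6.76 TPM, and Dtl at 66.2 ± 7.77 and 64.8 ± 3.78 TPM.

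Of 10 proliferation markers 0 passed, with a median of -0.02, or -0.14 after the length and GC correction. It was -0.088 without blebbistatin 1, -0.041 without vehicle 1, -0.014 without blebbistatin 3 and 0.012 without blebbistatin 2, so its sign depends on which library is left out. Top2a, the mitotic topoisomerase, stood at 726 ± 63.8 TPM with blebbistatin and 724 ± 30.02 TPM with vehicle, Birc5, survivin, at 302 ± 1.80 and 329 ± 10.1 TPM, and Mki67 at 252 ± 16.8 and 261 ± 14.9 TPM. Among other genes with an MCM domain or that bind MCM proteins, 0 of 3 tested passed, and Mcm3ap, which binds Mcm3, stood at 39.3 ± 0.865 and 39.96 ± 1.77 TPM and BC030867 at 20.3 ± 1.46 and 22.6 ± 1.216 TPM. Mcmdc2 was below the minimum level.

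**Figure D5:**
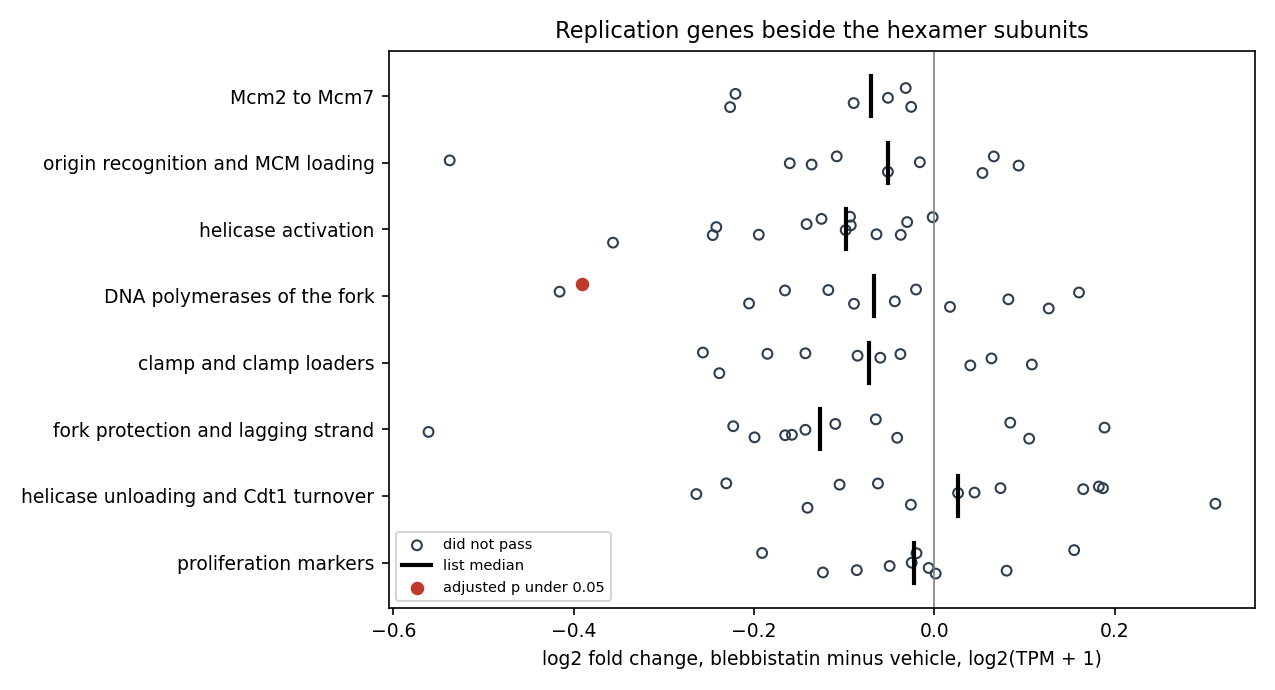
Log2 fold changes, blebbistatin minus vehicle, of the hexamer subunits and of each gene in 6 replication lists and the proliferation markers, with list medians as bars and the gene at adjusted p under 0.05 filled. The medians lie between -0.13 and 0.03 and 1 gene, Pold2, passed.

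Among 6248 non-members whose mean reached 20 TPM, those whose profile over the 6 libraries was nearest to the mean profile of the hexamer included Smarcc2, a subunit of SWI/SNF chromatin remodelling, Sh3bgrl3, Prmt5, an arginine methyltransferase, and Lta, the cytokine lymphotoxin alpha. The root mean square difference of the centred log2 values of these 4 genes was 0.011 to 0.014. Their own log2 fold changes were -0.13 to -0.10 and 0 of the 4 passed. The hexamer subunits themselves lay farther from the mean profile, with root mean square differences from 0.022 for Mcm3 to 0.088 for Mcm2. Nearness to the mean profile is therefore not nearness to each subunit.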

How the data were processed

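The submitters' processing notes list StringTie 1.3.4, DESeq2 1.22.2 and HISAT2 2.1.0, and the genome build mm10, without saying what each did. Per the labels' protocols the Illumina TruSeq RNA v2 kit was used, which does not mark strand. The TPM values were made by the authors and were used as deposited. The FPKM values of the authors and the deposited coverage, a signal of mean read depth with no normalization, served for depth and as alternatives. No table held counts, and no pair of libraries was identical. Each table listed 12 to 14 gene identifiers at several places.

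A gene entered the test when its mean over the 6 libraries reached 1 TPM. The test was limma 3.58.1 (R 4.3.3) on log2(TPM + 1), with a variance trend, no covariate and Benjamini-Hochberg adjustment over all tested genes at 0.05. Fold changes on that scale understate changes of low genes. The test was checked on simulated data with independent noise for each gene. That check holds no shift shared by the genes of a library, so it says nothing of such shifts. Depth assumes 300 aligned bases per fragment, the commonest value in low genes. Positions and transcripts came from GENCODE M21 (GRCm38), which matched 98.9% of gene identifiers. Figures used matplotlib 3.10.9 in Python 3.11.15.

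Members, lists and motifs were chosen with earlier results of these data known. Named genes were all members, genes of the pathway lists that passed or else the 3 with the highest level, start-region neighbours and the 5 nearest profiles, of which 1 is not reported here. Marker genes, Cdt1 and the genes that passed under an alternative alone were named after their values were seen. Whether replicate numbers pair the libraries is not stated, and the test treated the libraries as unpaired.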

Additional observations from a re-analysis of the deposited data

How the results depend on the processing

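The count of 0 MCM genes passing by limma held under each alternative except without blebbistatin 2, so the range over left-out libraries was 0 to 1. The median log2 fold change of Mcm2 to Mcm7 was -0.07, and it was -0.11 with median-ratio scaling, -0.0083 with quantile scaling and -0.10 after the length and GC correction. Over all genes 187 were higher and 57 lower. With no minimum level these were 40 and 9. Lower calls were 23 without the variance trend and 173 after the length and GC correction. Leaving out 1 library gave 3 to 496 higher and 0 to 594 lower, with both highest counts without blebbistatin 2. A replicate block gave 0 higher and 0 lower. Deviations of same-numbered libraries correlated at 0.011, -0.037 and -0.034. These values show no pairing by number, but with 3 libraries in each group they cannot exclude it. With or without the block 0 MCM genes passed, so there was no call for it to remove. Beyond the construction of each alternative, the cause of these shifts was not tested. Coverage-based fold changes and the overlap counts under other scalings were added after the data were seen. Groups of 3 were too small for the test of single outlying libraries.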
